A study of Homo sapiens with 16 samples.

Results

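The genes described here make cholesterol and fatty acids or control that synthesis in LNCaP cells, an androgen-responsive human prostate cancer line. They are 37 of the 60252 rows of the count table, chosen because their Ensembl identifiers map to a fixed list of gene symbols. Of these, 19 form the sterol arm, 9 the fatty acid arm and 9 regulate synthesis or move sterols, and all 37 passed the filter on low counts. The list was chosen with earlier results of these data known. Shares of all genes given beside the members' counts therefore describe the members and do not test them as a set. The cells carried 1 of 2 siRNAs against OGT (siOGT1 or siOGT2), OSMI2, or a scrambled siRNA (Scr), and knockdown lasted 48 hours. OGT is the enzyme that attaches O-GlcNAc sugars to nuclear and cytosolic proteins, and OSMI2 is an inhibitor of it. Each arm received the CDK inhibitor AT7519 at 0.5 µM or its vehicle DMSO for 4 hours before harvest. The 8 groups have 2 samples each. The labels list OSMI2 in the place of the siRNA, give it no dose or time, and do not say whether those cells also received scrambled siRNA. Nor do they say that the 2 samples of a group are separate cultures: p-values here reflect only how far these libraries differ, and that spread may be technical. All cells are of 1 line.

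Cholesterol is built from acetyl-CoA through mevalonate and isoprenoid diphosphates to squalene, which is closed to lanosterol and trimmed to cholesterol. Fatty acids start from the same acetyl-CoA pool, through acetyl-CoA carboxylase and fatty acid synthase. The transcription factors encoded by SREBF1 and SREBF2 switch on both branches when sterols are low: SCAP escorts them out of the endoplasmic reticulum, and INSIG1 and INSIG2 hold them back. Androgen-driven prostate cancer cells are known for high lipid synthesis. AT7519 blocks several CDKs, among them CDK9, which frees paused RNA polymerase II to elongate.

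Depth was between 40216911 and 147019364 counts per sample. OGT (ENSG00000147162), the target of the siRNAs, was at 11.01 and 10.98 CPM (counts relative to the library, scaled by TMM) with AT7519 and 20.7 and 14.6 CPM with DMSO in siOGT1 cells, and at 29.3 and 33.8 CPM with AT7519 and 36.0 and 29.8 CPM with DMSO in siOGT2 cells. Its level was 422 and 408 CPM with AT7519 and 349 and 336 CPM with DMSO in OSMI2 cells, against 256 and 314 CPM with AT7519 and 274 and 263 CPM with DMSO in Scr cells. Both siRNAs thus lowered OGT mRNA in every sample, and the log2 fold change under DMSO was -3.91 ± 0.14 (SE) for siOGT1 and -3.03 ± 0.14 for siOGT2 (edgeR adjusted p = 3.48e-11 and 1.35e-09). OSMI2 cells had more OGT mRNA than Scr cells under AT7519 (0.54 ± 0.13, adjusted p = 0.00875), and inhibition of the enzyme is not visible in mRNA. Of the LNCaP identity markers, 9 of 9 were present, with a summed level of 4410 to 5420 CPM with AT7519 and 4310 to 5260 CPM with DMSO. The markers of 3 basal epithelial genes summed to 0.172 to 1.08 CPM with AT7519 and 0.339 to 0.986 CPM with DMSO, and 4 stromal genes to 13.1 to 41.8 CPM and 11.6 to 30.3 CPM. Most of the stromal sum was COL1A1, at 12.17 to 40.82 CPM with AT7519 and 10.76 to 29.45 CPM with DMSO. The 3 neuroendocrine markers summed to 2.76 to 7.12 CPM and 3.52 to 6.38 CPM, and 4 hepatocyte and adipocyte markers to 1.93 to 7.32 CPM and 1.39 to 5.11 CPM. The 3 leukocyte markers were near 0 and summed to 0.0148 to 0.154 CPM with AT7519 and 0.301 to 0.811 CPM with DMSO. The gap lay in CD68, at no more than 0.0927 CPM with AT7519 and at least 0.256 CPM with DMSO, and its part in the results was not tested.

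Levels between genes were compared as CPM per kilobase of exonic length in Scr cells with DMSO. FASN, fatty acid synthase, averaged 195 ± 19.5 (SD, n = 2) and SCD, the stearoyl-CoA desaturase, 192 ± 7.25, a difference within their spread. ACLY, which makes cytosolic acetyl-CoA from citrate, followed at 97.3 ± 1.10, and the desaturase FADS2 at 90.7 ± 7.46, which is also within the spread of ACLY and FADS2. PMVK, the phosphomevalonate kinase, had the highest value of the sterol arm per kilobase at 87.1 ± 3.31. The length counts every annotated exon of a gene, expressed or not: 1280 bases for PMVK, 3718 for FDPS and 5202 for FDFT1. Before division by length PMVK averaged 111.5 CPM, below FDPS at 180.9 and FDFT1 at 265.9 CPM. The order of genes thus depends on the annotated lengths. The order per kilobase ended with ABCA1, a cholesterol exporter, at 0.355 ± 0.0233. Reads of some members can be shared with other genes: 17 members overlap the exons of another annotated gene, and the count of the pseudogene HSD17B7P2 came to 15.9% of that of HSD17B7. Only TM7SF2, by 16 bases, and FADS2, by 49, overlap a gene on the same strand, and the others overlap genes on the opposite strand.

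The median over the sterol arm, as log2 ratio to the Scr DMSO mean, was 0.33 and 0.29 in siOGT1 cells with AT7519 and 0.18 and 0.11 with DMSO. In siOGT2 cells it was 0.57 and 0.43 with AT7519 and 0.23 and 0.20 with DMSO. In OSMI2 cells it was -0.22 and -0.05 with AT7519 and 0.17 and 0.29 with DMSO, against 0.16 and 0.17 with AT7519 and 0.05 and -0.05 with DMSO in Scr cells. OSMI2 was the arm in which both AT7519 samples lay below both DMSO samples, and in the other 3 arms both AT7519 samples lay above. The fatty acid arm had a median of -0.14 and 0.07 with AT7519 and -0.04 and 0.22 with DMSO in OSMI2 cells, so these groups overlapped. In Scr cells it was 0.25 and 0.22 with AT7519 and 0.04 and -0.04 with DMSO.

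**Figure D1:**
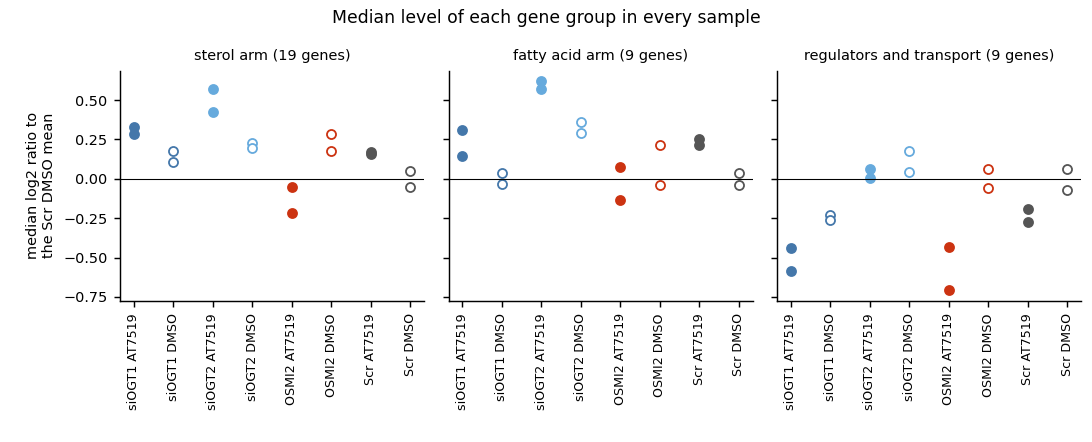
Each point is 1 sample: the median over the genes of a group of the log2 ratio of normalised CPM to the mean of the 2 Scr DMSO samples (y axis), by arm and agent (x axis; filled points AT7519, open points DMSO). In the sterol arm the OSMI2 samples with AT7519 are at -0.22 and -0.05, and the other 6 AT7519 samples are above 0.

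The first comparison asks what 4 hours of CDK inhibition did to these transcripts in cells with and without OGT knockdown. Genes are called higher or lower at an adjusted p under 0.05 in edgeR's quasi-likelihood test over all genes. In siOGT1 cells, AT7519 raised 14 members and lowered 5, where 19.4% of all 23830 genes tested rose and 22% fell. In siOGT2 cells 14 rose and 3 fell (all genes, 22.2% and 22.8%), and in Scr cells 15 rose and 8 fell (21.8% and 24.6%). Of the sterol arm 7, 8 and 8 of 19 genes rose in siOGT1, siOGT2 and Scr cells, and the medians over the arm were 0.24, 0.19 and 0.15, against -0.05, -0.03 and -0.05 over all genes, and with library size only 0.01, -0.07 and -0.09. In the fatty acid arm 5, 4 and 5 of 9 rose, and LPIN1 was the member that fell in each of the 3 arms. These directions depend on the scaling: with library size only, the median of all genes moved to -0.27, -0.30 and -0.30, and siOGT1 cells then had 3 members higher and 10 lower, siOGT2 cells 0 and 12, and Scr cells 3 and 13. Upper-quartile scaling gave 21 and 3, 20 and 2, and 19 and 4. Of all genes called in Scr cells, 47.0% were higher with TMM, 26.9% with library size only and 58.7% with upper-quartile scaling. Well expressed genes were called more often than all genes. Among 10181 genes with a mean log2 CPM of 3 or more, calls numbered 6339, 6544 and 6806 in siOGT1, siOGT2 and Scr cells. Of these calls 45.7%, 48.1% and 46.8% were higher. The members called in those fits were 10 higher and 5 lower, 11 and 4, and 13 and 7. Without the second DMSO sample of the arm, siOGT1 and siOGT2 cells each had 6 members higher and 4 lower, and Scr cells 5 and 5. Counts are relative to the library and show neither the RNA per cell nor the number of cells. A member called higher may therefore have kept its amount per cell, or fallen less than other genes.

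Among sterol genes, 6 rose in siOGT1, siOGT2 and Scr cells alike. They are PMVK, the farnesyl diphosphate synthase FDPS, the cytosolic thiolase ACAT2, the squalene synthase FDFT1, and the sterol reductase TM7SF2 and isomerase EBP of the late steps. The share of all genes that rose in these 3 arms alike is not given, so this count does not set sterol genes apart. The groups of EBP did not overlap: it had 148 and 136 CPM with AT7519 and 103 and 99.9 CPM with DMSO in siOGT1 cells, 76.1 and 94.3 CPM with AT7519 and 65.97 and 61.6 CPM with DMSO in siOGT2 cells, and 143 and 150.0 CPM with AT7519 and 104 and 98.8 CPM with DMSO in Scr cells. The log2 fold change of EBP was 0.48 ± 0.09, 0.42 ± 0.09 and 0.53 ± 0.09 in the 3 arms. FDPS changed by 0.48, 0.40 and 0.44, each with an SE of 0.08. ACAT2 changed by 0.37, 0.42 and 0.34. HMGCS1 was called in siOGT1 cells (0.24, adjusted p = 0.0496) and MSMO1 in siOGT2 cells (0.34). FDPS, ACAT2, EBP and PMVK were called in these 3 arms with any 1 library left out. With library size only, FDPS was called in siOGT1 cells at 0.25 and in Scr cells at 0.19 but not in siOGT2 cells at 0.14, and ACAT2 in none.

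In the fatty acid arm, SCD and FADS2 rose in siOGT1, siOGT2 and Scr cells. SCD had 1408 and 1139 CPM with AT7519 and 973 and 899.9 CPM with DMSO in siOGT1 cells, 1922 and 1786 CPM with AT7519 and 1323 and 1263 CPM with DMSO in siOGT2 cells, and 1539 and 1371 CPM with AT7519 and 1059 and 1004 CPM with DMSO in Scr cells. The SCD groups did not overlap in these arms, and the log2 fold changes were 0.44, 0.52 and 0.50, each with an SE of 0.14. FASN had 2363 and 2858 CPM with AT7519 and 2087 and 1781 CPM with DMSO in siOGT1 cells, and 2337 and 2803 CPM with AT7519 and 1953 and 1695 CPM with DMSO in Scr cells, and was called in both (log2 fold change 0.43 and 0.49). In siOGT2 cells FASN had 3001 and 4161 CPM with AT7519 and 2848 and 2593 CPM with DMSO and missed the threshold at 0.40 ± 0.15 (adjusted p = 0.0504). The OSMI2 samples overlapped for both genes, with SCD at 938 and 1228 CPM with AT7519 and 842 and 1123 CPM with DMSO, and FASN at 1942 and 2111 CPM with AT7519 and 1778 and 2172 CPM with DMSO. With library size only, SCD and FADS2 were not called in any arm.

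**Figure D2:**
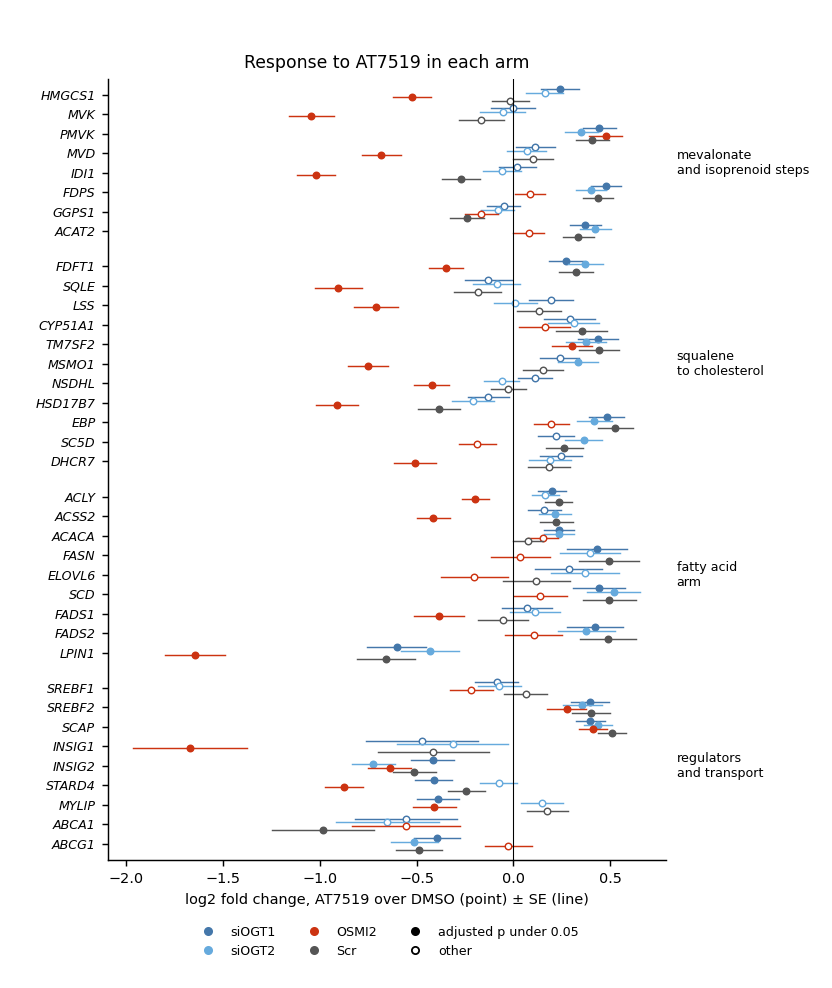
Log2 fold change of each of the 37 genes with AT7519 over DMSO (x axis; point) with its SE (line) in siOGT1, siOGT2, OSMI2 and Scr cells, grouped by role (y axis); filled points have an adjusted p under 0.05. Most OSMI2 points of the sterol arm lie left of 0, down to -1.04 for MVK, apart from those of the other 3 arms.

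In OSMI2 cells AT7519 lowered 19 members and raised 4, where 23.6% of all genes fell and 23.6% rose. Of 19 sterol genes 11 fell and 2 rose, with a median of -0.42 against 0.02 over all genes, and in the fatty acid arm 4 of 9 fell and none rose. The 11 lie along the pathway but not at every step. HMGCS1, MVK, MVD and IDI1 make the isoprenoid unit, and FDFT1, SQLE and LSS make and close squalene. MSMO1, NSDHL, HSD17B7 and DHCR7 act on the way from lanosterol to cholesterol. PMVK and TM7SF2 rose, and FDPS, GGPS1, ACAT2, CYP51A1, EBP and SC5D were not called. The largest fall of the sterol arm was that of MVK, mevalonate kinase, at -1.04 ± 0.12 (adjusted p = 4.66e-07), followed by IDI1, the isopentenyl diphosphate isomerase, at -1.02 ± 0.10 (adjusted p = 6.22e-08). HSD17B7 fell by 0.91 on the log2 scale and NSDHL by 0.42. SQLE, squalene epoxidase, had 52.9 and 56.4 CPM with AT7519 and 91.9 and 112.5 CPM with DMSO in OSMI2 cells, and HMGCS1 had 149 and 168 CPM with AT7519 and 223 and 232 CPM with DMSO. Neither overlapped between agents there, and they fell by 0.90 and 0.52. With any 1 library left out, 10 of the 11 were still called lower, and FDFT1 was called in 3 of the 4 fits. With upper-quartile scaling 10 fell and 6 rose, and with library size only 13 fell and 1 rose. Over all members these scalings gave 15 lower and 9 higher, and 24 lower and 1 higher, with the median of all genes at 0.20 and -0.22. Among 10181 genes with a mean log2 CPM of 3 or more, 7151 were called in OSMI2 cells, 51.3% of them higher. The members called in that fit were again 19 lower and 4 higher.

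Of the 19 members that fell in OSMI2 cells, 3 rose in Scr cells (FDFT1, and ACLY and ACSS2, which library size only puts at -0.01 and -0.02 there), 5 fell there too (IDI1, HSD17B7, LPIN1, INSIG2 and STARD4) and 11 were not called. Of the 14 members not called in OSMI2 cells, 8 rose in Scr cells (FDPS, ACAT2, CYP51A1, EBP, SC5D, FASN, SCD and FADS2). The values of these 8 in OSMI2 cells lay between -0.19 for SC5D and 0.20 for EBP. How the calls of the 2 arms overlap over all genes is not given, so these counts do not set the members apart from other genes.

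Whether the response itself differed was tested as the log2 fold change with AT7519 in an arm minus that in Scr cells. For OSMI2 minus Scr, 11 members were lower and none higher, where 0.663% of all genes were lower and 0.0839% higher. They comprise 7 of 19 sterol genes, 3 of 9 fatty acid genes and 1 of 9 regulators and transport genes. The median over all 37 members was -0.40, against 0.04 over all genes, and 32 of 37 lay below 0. Because the members were chosen with earlier results of these data known, these figures do not test them as a set. Among 10181 genes with a mean log2 CPM of 3 or more, 186 were called for OSMI2 minus Scr, 15.1% of them higher. The members called in that fit were 10, all lower. For siOGT1 minus Scr (all genes, 0.0378% higher and 0.0126% lower) and siOGT2 minus Scr (0% and 0%) no member was called in the edgeR fit with 1 mean per group, and DESeq2 called 1 and 0. The count at an unadjusted p under 0.05 in the same edgeR fit was 22 members for OSMI2, 2 for siOGT1 and 0 for siOGT2. The shares of all genes at that unadjusted p are not given, so these counts do not compare the members with other genes. Over the sterol genes the siOGT1 differences lay between -0.06 and 0.29 and the siOGT2 differences between -0.12 and 0.21, with SEs of 0.11 to 0.19. All 3 differences use the same Scr samples. The number called for OSMI2 depends on single DMSO samples: it was 0 without the second OSMI2 DMSO sample, 1 without the second Scr DMSO sample, and 6 without the first DMSO sample of either arm. The share of all genes called in these 4 fits was 0.132% to 0.209%, so that it fell with the members' count. In every such fit the 11 differences lay below 0, between -1.25 and -0.40. Against the mean of siOGT1 and siOGT2, a comparison added after the values were seen, the OSMI2 response was lower for 16 members (all genes, 1.66%) and higher for none (0.394%). These were the same 11 with HMGCS1, SQLE, NSDHL, HSD17B7 and SC5D.

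MSMO1 (ENSG00000052802), the methylsterol monooxygenase, had 118 and 144 CPM with AT7519 and 197 and 243 CPM with DMSO in OSMI2 cells, against 142 and 136 CPM with AT7519 and 129 and 119.7 CPM with DMSO in Scr cells. In the knockdown arms it had 209 and 191 CPM with AT7519 and 174 and 165 CPM with DMSO (siOGT1), and 239 and 218 CPM with AT7519 and 188 and 174 CPM with DMSO (siOGT2). Its OSMI2 DMSO samples were above all Scr samples, and its OSMI2 AT7519 samples overlapped them. The OSMI2 minus Scr difference was -0.91 ± 0.14 (adjusted p = 0.00497), and it was called in 7 of 8 fits with 1 library left out, the exception being the fit without the second OSMI2 DMSO sample.

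MVD (ENSG00000167508), the diphosphomevalonate decarboxylase, had 42.8 and 49.8 CPM with AT7519 and 66.8 and 81.5 CPM with DMSO in OSMI2 cells, against 41.0 and 40.4 CPM with AT7519 and 39.4 and 36.3 CPM with DMSO in Scr cells. It had 61.2 and 64.5 CPM with AT7519 and 58.8 and 57.5 CPM with DMSO in siOGT1 cells, and 68.2 and 73.4 CPM with AT7519 and 71.5 and 63.4 CPM with DMSO in siOGT2 cells. All Scr samples thus lay below all samples of the other 3 arms, and the OSMI2 difference in response was -0.78 ± 0.14 (adjusted p = 0.0141). LSS (ENSG00000160285), lanosterol synthase, had 89.6 and 108 CPM with AT7519 and 139 and 184 CPM with DMSO in OSMI2 cells, against 113 and 121 CPM with AT7519 and 114 and 99.9 CPM with DMSO in Scr cells. In siOGT1 cells LSS had 183 and 188 CPM with AT7519 and 171 and 153 CPM with DMSO, and in siOGT2 cells 187 and 195 CPM with AT7519 and 199 and 180.5 CPM with DMSO. The knockdown samples of LSS were above all Scr samples with either agent, and the OSMI2 difference in response was -0.84 ± 0.16 (adjusted p = 0.0165).

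MVK (ENSG00000110921) had 22.2 and 24.5 CPM with AT7519 and 48.6 and 47.6 CPM with DMSO in OSMI2 cells, against 27.4 and 32.4 CPM with AT7519 and 36.6 and 30.5 CPM with DMSO in Scr cells. Its knockdown samples lay between 36.5 and 44.3 CPM, and the groups with and without AT7519 overlapped there as in Scr cells. The OSMI2 difference was -0.88 ± 0.17 (adjusted p = 0.0162). IDI1 (ENSG00000067064) had 66.4 and 74.5 CPM with AT7519 and 134 and 152 CPM with DMSO in OSMI2 cells, against 105 and 87.6 CPM with AT7519 and 118 and 114 CPM with DMSO in Scr cells. It had 134 and 129.9 CPM with AT7519 and 132 and 128 CPM with DMSO in siOGT1 cells, and 137 and 115 CPM with AT7519 and 129.7 and 133 CPM with DMSO in siOGT2 cells. AT7519 lowered IDI1 in Scr cells too (-0.27 ± 0.10), and the OSMI2 difference was -0.75 ± 0.14 (adjusted p = 0.0148). FDFT1 (ENSG00000079459) had 223 and 249 CPM with AT7519 and 279.8 and 321 CPM with DMSO in OSMI2 cells, against 337 and 329 CPM with AT7519 and 281 and 251 CPM with DMSO in Scr cells. Here the arms moved in opposite directions, -0.35 ± 0.09 in OSMI2 and 0.33 ± 0.09 in Scr cells, and the difference was -0.67 ± 0.13 (adjusted p = 0.0156). With upper-quartile scaling the fall of FDFT1 in OSMI2 cells was -0.18 and not called.

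DHCR7 (ENSG00000172893), which reduces the last sterol intermediate of one route to cholesterol, had 126 and 154 CPM with AT7519 and 189 and 208 CPM with DMSO in OSMI2 cells, against 178 and 186 CPM with AT7519 and 174 and 145 CPM with DMSO in Scr cells. Its difference was -0.69 ± 0.15 (adjusted p = 0.0375). In siOGT1 cells DHCR7 had 227 and 214 CPM with AT7519 and 198 and 172 CPM with DMSO, and in siOGT2 cells 238 and 257 CPM with AT7519 and 235 and 198 CPM with DMSO. FDFT1 in the knockdown arms had 327 and 304 CPM with AT7519 and 272 and 251 CPM with DMSO (siOGT1), and 400.0 and 373 CPM with AT7519 and 316 and 281 CPM with DMSO (siOGT2).

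**Figure D3:**
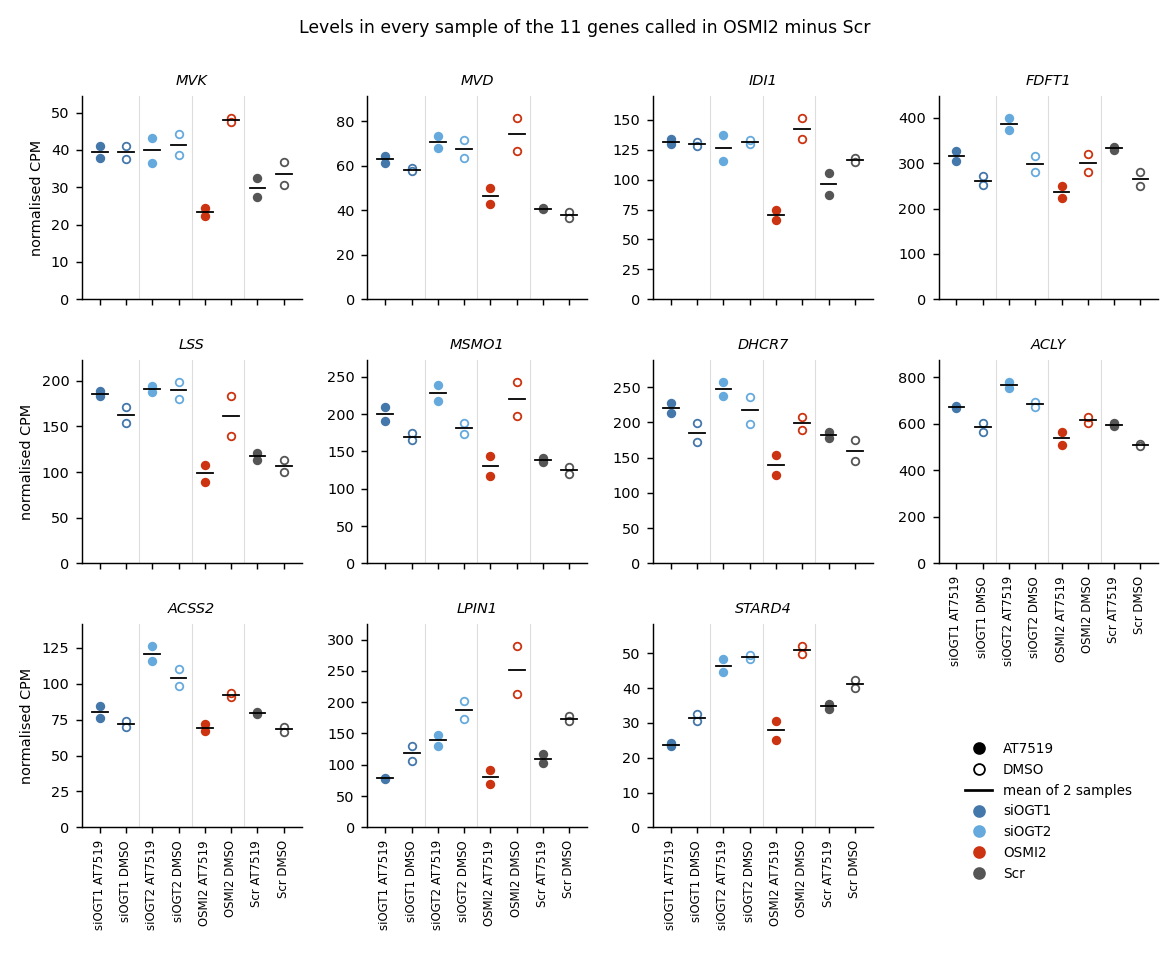
Normalised CPM (y axes, from 0) in every sample of the 11 genes whose AT7519 response was lower in OSMI2 than in Scr cells, by arm and agent (x axis; filled points AT7519, open points DMSO, bars the mean of 2 samples). In each panel both OSMI2 AT7519 samples lie below both OSMI2 DMSO samples, as for MVK at 22.2 and 24.5 against 48.6 and 47.6 CPM.

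In the fatty acid arm the largest difference was that of LPIN1 (ENSG00000134324), lipin, a phosphatidate phosphatase of glycerolipid synthesis. It had 69.3 and 92.05 CPM with AT7519 and 214 and 289.9 CPM with DMSO in OSMI2 cells, against 103 and 117 CPM with AT7519 and 178 and 169 CPM with DMSO in Scr cells. In siOGT1 cells it had 76.6 and 79.5 CPM with AT7519 and 131 and 106 CPM with DMSO, and in siOGT2 cells 130.3 and 148 CPM with AT7519 and 202 and 174 CPM with DMSO. LPIN1 fell in all 4 arms, by 1.65 on the log2 scale in OSMI2 cells and by 0.66 in Scr cells, and the difference of -0.99 ± 0.21 lay at the threshold (adjusted p = 0.0499). With upper-quartile scaling LPIN1 was at -0.32 and not called in siOGT2 cells, and its OSMI2 difference was called in 3 of 8 fits with 1 library left out.

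ACSS2 (ENSG00000131069), which makes acetyl-CoA from acetate, had 67.2 and 71.9 CPM with AT7519 and 91.1 and 93.9 CPM with DMSO in OSMI2 cells, against 79.0 and 80.3 CPM with AT7519 and 70.1 and 66.5 CPM with DMSO in Scr cells. It had 76.0 and 84.5 CPM with AT7519 and 73.9 and 69.8 CPM with DMSO in siOGT1 cells, and 116 and 126 CPM with AT7519 and 110.4 and 98.3 CPM with DMSO in siOGT2 cells. In the OSMI2 and Scr arms ACSS2 did not overlap between agents, and the arms moved in opposite directions (difference -0.63 ± 0.12, adjusted p = 0.0162), although with library size only ACSS2 in Scr cells was at -0.02. ACLY (ENSG00000131473) had 510.0 and 565 CPM with AT7519 and 603 and 629 CPM with DMSO in OSMI2 cells, against 604 and 590.4 CPM with AT7519 and 512 and 504 CPM with DMSO in Scr cells. In siOGT1 cells it had 669 and 677 CPM with AT7519 and 605 and 566 CPM with DMSO, and in siOGT2 cells 755 and 781 CPM with AT7519 and 694 and 675 CPM with DMSO. The ACLY difference was the smallest of the 11 called, -0.43 ± 0.10 (adjusted p = 0.0487), with OSMI2 at -0.20 and Scr at 0.23, and with library size only ACLY in Scr cells was at -0.01.

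STARD4 (ENSG00000164211), a sterol carrier protein, had 25.2 and 30.4 CPM with AT7519 and 49.7 and 52.1 CPM with DMSO in OSMI2 cells, against 35.5 and 34.1 CPM with AT7519 and 42.4 and 40.0 CPM with DMSO in Scr cells. It had 23.2 and 24.1 CPM with AT7519 and 32.4 and 30.5 CPM with DMSO in siOGT1 cells, and 48.3 and 44.5 CPM with AT7519 and 48.2 and 49.6 CPM with DMSO in siOGT2 cells. STARD4 thus separated the siRNAs, with every siOGT1 sample below every siOGT2 sample, and its OSMI2 difference was -0.63 ± 0.14 (adjusted p = 0.0327). INSIG1, the sterol-sensing retention protein, had 92.1 and 119 CPM with AT7519 and 294 and 375 CPM with DMSO in OSMI2 cells, against 159 and 114 CPM with AT7519 and 215 and 148 CPM with DMSO in Scr cells. INSIG1 fell in OSMI2 cells (-1.67 ± 0.29, adjusted p = 0.00107), but its difference of -1.26 ± 0.41, with the largest SE of the 37, was not called (adjusted p = 0.334).

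**Figure D4:**
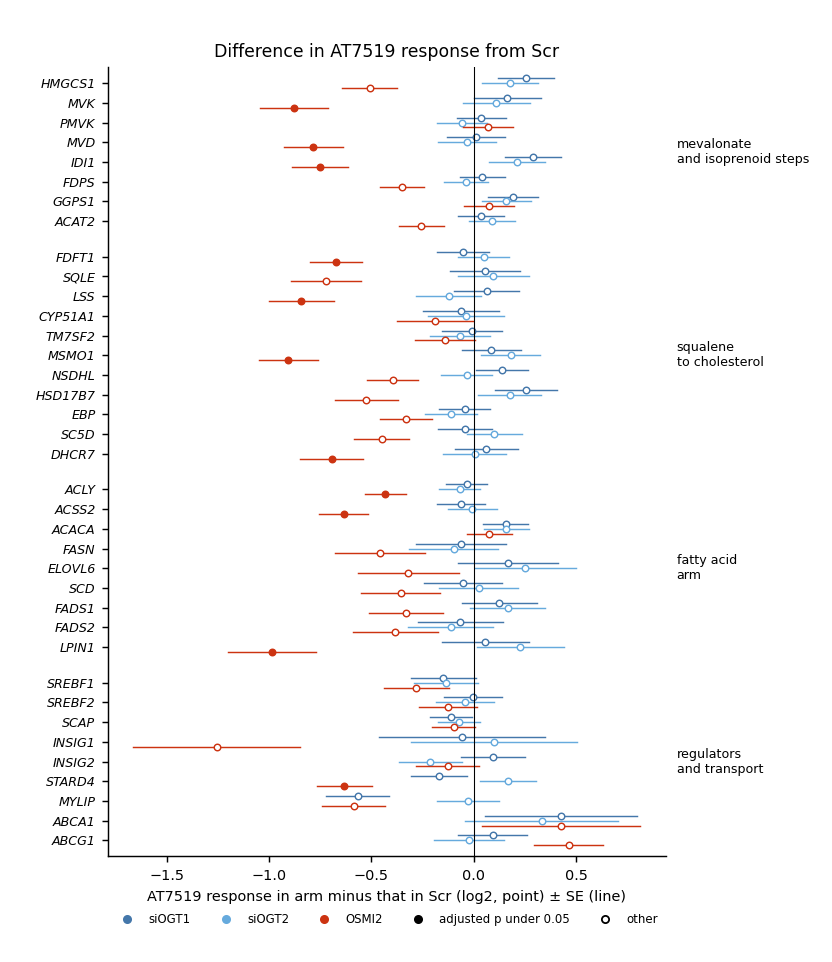
AT7519 response (log2 fold change over DMSO) in siOGT1, siOGT2 or OSMI2 cells minus that in Scr cells (x axis; point) with its SE (line) for the 37 genes grouped by role (y axis); filled points have an adjusted p under 0.05. The 11 filled points are all of OSMI2 and lie between -0.99 and -0.43.

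The promoters of 4 of these genes are shown because their responses differed most among the called members with a single RefSeq window. Factor NF-Y, which binds CCAAT boxes, is a known partner of the SREBF proteins at sterol promoters. Each sequence is the 250 bases before the annotated start, 5′ to 3′ on the gene's strand in GRCh38.p14, with CCAAT or its reverse complement ATTGG in capitals: MSMO1 at chr4:165327419-165327668 (+ strand), MVK at chr12:109573544-109573793 (+), LSS at chr21:46228775-46229024 (- strand) and MVD at chr16:88663092-88663341 (-).
MSMO1: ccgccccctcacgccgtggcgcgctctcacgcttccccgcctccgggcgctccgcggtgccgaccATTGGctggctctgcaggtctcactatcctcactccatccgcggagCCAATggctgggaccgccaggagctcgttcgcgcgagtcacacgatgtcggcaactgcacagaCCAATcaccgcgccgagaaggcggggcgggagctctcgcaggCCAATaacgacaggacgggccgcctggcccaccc
MVK: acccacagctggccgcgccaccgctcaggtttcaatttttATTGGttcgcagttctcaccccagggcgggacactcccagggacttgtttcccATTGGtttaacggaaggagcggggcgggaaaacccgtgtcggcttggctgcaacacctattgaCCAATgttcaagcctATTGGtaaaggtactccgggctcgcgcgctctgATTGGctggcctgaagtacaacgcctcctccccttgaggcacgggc
LSS: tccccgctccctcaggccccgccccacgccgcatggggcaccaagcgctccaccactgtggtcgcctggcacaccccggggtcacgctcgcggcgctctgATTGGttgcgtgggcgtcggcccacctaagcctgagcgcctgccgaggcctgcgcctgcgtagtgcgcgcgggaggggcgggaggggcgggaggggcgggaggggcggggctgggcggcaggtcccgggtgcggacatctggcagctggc
MVD: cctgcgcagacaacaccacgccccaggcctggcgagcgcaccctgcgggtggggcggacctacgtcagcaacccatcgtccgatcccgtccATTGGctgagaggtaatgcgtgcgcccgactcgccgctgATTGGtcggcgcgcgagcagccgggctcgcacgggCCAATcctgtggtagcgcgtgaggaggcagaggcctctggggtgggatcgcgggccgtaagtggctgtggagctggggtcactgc
MSMO1 held 4 matches, MVK 5, LSS 1 and MVD 3, counting both strands, and no match overlapped another. Of the 37 members 32 were in the RefSeq table, with 47 windows, and 55.3% of these windows held a CCAAT match against 32.008% of all 35116 windows. By gene, 22 of the 32 held 1 or more, against 36.997% of all genes: 9 of the 10 with an entry among the 11 called, where LPIN1 had none, and 13 of the other 22. The motif TCACNCCAC, one form of the sterol regulatory element, was found on either strand in 0.883% of all windows and in 1 member, SREBF2. These matches describe letters in a window and were not tested for binding.

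The second comparison asks how the siRNA and OSMI2 arms differed from Scr in the cells that received DMSO in place of AT7519. Under DMSO, siOGT1 raised 7 members and lowered 4 (all genes, 4.89% and 5.51%), siOGT2 raised 9 and lowered 1 (1.92% and 2.38%), and OSMI2 raised 7 and lowered 2 (0.491% and 2.49%). Of 19 sterol genes 5, 6 and 5 rose, and the medians were 0.16, 0.19 and 0.23, against values between -0.02 and -0.01 over all genes. MVD, LSS and MSMO1 rose in each of the 3 comparisons, which share the Scr samples. The share of all genes that rose in each of the 3 is not given. Calls were again more frequent among the 10181 well expressed genes: 2257 with siOGT1, 1085 with siOGT2 and 682 with OSMI2. That fit called 10 members higher and 4 lower, 10 and 1, and 11 and 2. MVD was higher by 0.62 ± 0.10 with siOGT1, 0.83 ± 0.10 with siOGT2 and 0.97 ± 0.10 with OSMI2 (adjusted p = 0.000477, 9.11e-05 and 8.52e-05), and it was called with any 1 library left out. LSS was higher by 0.61, 0.83 and 0.60, and MSMO1 by 0.45, 0.54 and 0.82. HMGCS1, the HMG-CoA synthase, and MVK rose with OSMI2 (0.475 and 0.52), and TM7SF2 and DHCR7 with siOGT2 (0.43 and 0.44). PMVK rose with siOGT1 (0.30). The number called was 6, 5, 4 and 4 for siOGT1 without the first Scr, first siOGT1, second Scr or second siOGT1 DMSO sample. It was 6 for siOGT2 without its first or the second Scr DMSO sample. For OSMI2 it was 4 without its first and 2 without its second or the second Scr DMSO sample.

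ACAT2 (ENSG00000120437) went opposite ways with the siRNAs and OSMI2. It had 117 and 115 CPM with AT7519 and 87.4 and 91.9 CPM with DMSO in siOGT1 cells, 135 and 123 CPM with AT7519 and 91.97 and 100.5 CPM with DMSO in siOGT2 cells, and 62.7 and 60.2 CPM with AT7519 and 59.8 and 56.6 CPM with DMSO in OSMI2 cells, against 93.1 and 91.2 CPM with AT7519 and 70.9 and 75.1 CPM with DMSO in Scr cells. Within either agent the order was OSMI2, Scr, siOGT1 and siOGT2 by mean, and with DMSO no sample of OSMI2 or Scr reached a knockdown sample. The log2 fold change under DMSO was 0.30 with siOGT1, 0.40 with siOGT2 and -0.33 with OSMI2, each with an SE of 0.08 (adjusted p = 0.0186, 0.00595 and 0.0279). The OSMI2 call was lost in each fit without 1 library (highest adjusted p = 0.335) and under both other scalings (-0.23 and -0.26), while under AT7519 the OSMI2 value of -0.58 was called in all of them. ACAT2 shares 397 exonic bases with TCP1 on the opposite strand, and the sources used here do not say how strand was set in counting.

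ACACA (ENSG00000278540), acetyl-CoA carboxylase, was the fatty acid gene that rose with both siRNAs under DMSO. It had 945 and 990.3 CPM with AT7519 and 864 and 781 CPM with DMSO in siOGT1 cells, 925 and 971 CPM with AT7519 and 810.2 and 798 CPM with DMSO in siOGT2 cells, and 672 and 737 CPM with AT7519 and 608 and 659 CPM with DMSO in OSMI2 cells, against 671 and 647 CPM with AT7519 and 651 and 598 CPM with DMSO in Scr cells. No knockdown sample of ACACA overlapped a Scr or OSMI2 sample of the same agent, and under DMSO the changes were 0.40 and 0.37 with the siRNAs and 0.02 with OSMI2, each with an SE of 0.08. ACLY and ACSS2 rose with siOGT2 (0.43 and 0.61) and OSMI2 (0.28 and 0.44) but missed the threshold with siOGT1 (0.21 and 0.07). ELOVL6, an elongase, and LPIN1 fell with siOGT1 (-0.63 and -0.55), and LPIN1 was not called with either other scaling. FASN had 0.58 ± 0.15 with siOGT2, just above the threshold in the fit without a replicate block (edgeR adjusted p = 0.052, and 0.00186 to 0.363 over the other settings). SCD, FADS1 and FADS2 were called in none of the 3.

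The siRNAs differed from each other at 5 members in a direct test added after the values were seen, siOGT2 over siOGT1 under DMSO (all genes, 1.11% higher and 0.705% lower). ACSS2 (0.54), LPIN1 (0.66), SREBF1 (0.61) and STARD4 (0.64) were higher with siOGT2, and EBP was lower (-0.67 ± 0.09, adjusted p = 0.00019). EBP was at 0.00 ± 0.09 with siOGT1 and -0.67 ± 0.09 with siOGT2 against Scr under DMSO. SREBF1, which drives fatty acid genes, had 349 and 291 CPM with siOGT1 and 534.5 and 442 CPM with siOGT2 under DMSO, against 462 and 397 CPM in Scr cells, so the siRNAs lay on either side of the Scr mean. SREBF1 and STARD4 fell with siOGT1 (-0.42 ± 0.11 and -0.39 ± 0.10) and had 0.19 and 0.25 with siOGT2, not called.

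**Figure D5:**
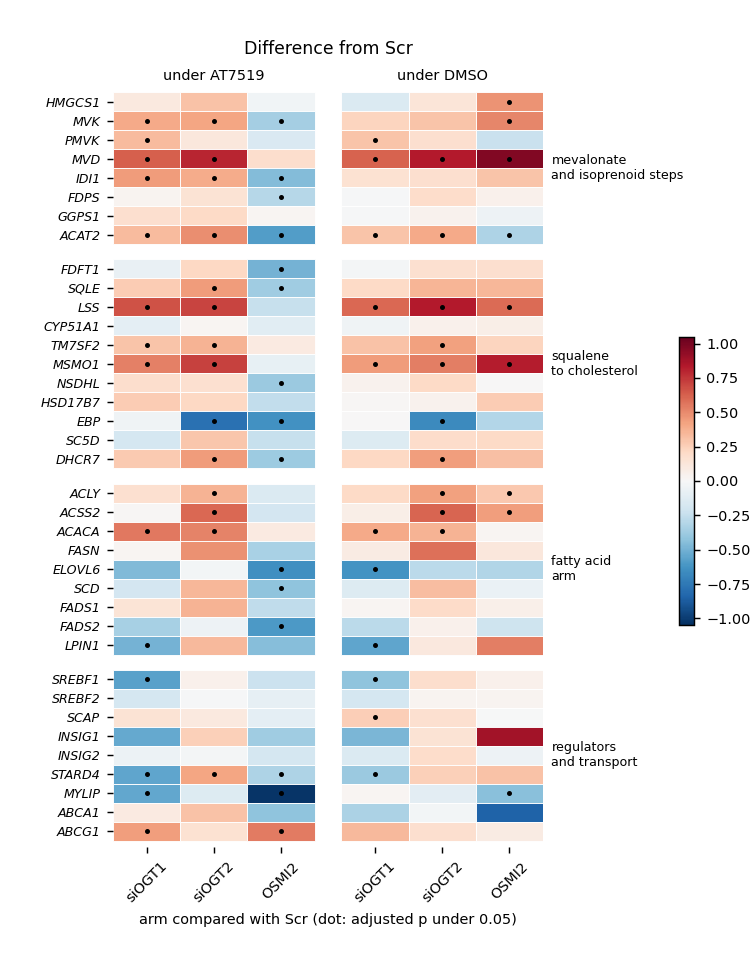
Log2 fold change against Scr (colour scale) of the 37 genes grouped by role (rows) for siOGT1, siOGT2 and OSMI2 (columns), under AT7519 at the left and under DMSO at the right; a dot marks an adjusted p under 0.05. MVD, LSS and MSMO1 are red with a dot in all 3 columns under DMSO, and under AT7519 in the siRNA columns but not with OSMI2.

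With AT7519 on board, siOGT1 cells had 10 members higher and 4 lower than Scr cells (all genes, 9.97% and 9.19%) and siOGT2 cells 13 and 1 (4.68% and 3.48%). OSMI2 cells had 1 higher and 14 lower (5.18% and 9.01%). Of 19 sterol genes 8 and 9 were higher with the siRNAs, while 9 were lower with OSMI2, and the medians were 0.27, 0.31 and -0.26 (all genes, -0.03, 0.01 and 0.02). Among the 10181 well expressed genes calls were more frequent than over all genes: 3835 with siOGT1, 1997 with siOGT2 and 2861 with OSMI2. That fit called 11 members higher and 5 lower, 15 and 1, and 1 and 8. For siOGT1 these figures do not set the members apart from other well expressed genes. EBP was the sterol gene lower with siOGT2 (-0.78 ± 0.09). MVK was higher by 0.39 with siOGT1 and 0.41 with siOGT2 and lower with OSMI2 (-0.36 ± 0.12), and IDI1 by 0.45, 0.39 and -0.45 ± 0.10. ACAT2 was higher by 0.33 and 0.49 and lower with OSMI2 (-0.58 ± 0.08). IDI1, ACAT2, FDFT1, NSDHL, EBP and MYLIP were lower with OSMI2 with any 1 library left out. FDPS, SQLE and DHCR7 were lower too (-0.30, -0.37 and -0.38), but MVK and SQLE lost the call without 3 of the 4 libraries in turn. STARD4 was lower (-0.33) and ABCG1 the member higher (0.55). In the fatty acid arm ELOVL6 (-0.64), SCD (-0.43) and FADS2 (-0.60) were lower with OSMI2. The number called with OSMI2 was 8 without its first AT7519 sample, and 9 with upper-quartile scaling or library size only.

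Among the regulators, SREBF2, the main sterol gene activator, and SCAP rose with AT7519 in all 4 arms. SREBF2 changed by 0.40, 0.36 and 0.28 in siOGT1, siOGT2 and OSMI2 cells and by 0.40 in Scr cells, and SCAP by 0.40, 0.44, 0.41 and 0.51. With library size only both were still above 0 in the 4 arms, but SCAP was called in Scr cells alone (0.26) and SREBF2 in none. PMVK and TM7SF2 were the other members that rose in all 4 arms. INSIG2 fell in all 4, by 0.42, 0.72 and 0.64 on the log2 scale in siOGT1, siOGT2 and OSMI2 cells and by 0.51 in Scr cells, and did so under both other scalings. SREBF1 was not called with AT7519 in any arm (-0.22 to 0.06). ABCG1, a sterol exporter, fell in siOGT1 cells (-0.40), siOGT2 cells (-0.51) and Scr cells (-0.49) and was at -0.03 ± 0.12 in OSMI2 cells, and ABCA1 fell in Scr cells (-0.98 ± 0.27). MYLIP, a ubiquitin ligase that targets lipoprotein receptors, fell in siOGT1 (-0.39) and OSMI2 cells (-0.41), and under AT7519 it was the member furthest below Scr in OSMI2 cells (-1.03 ± 0.11, adjusted p = 1.01e-05). GGPS1, the geranylgeranyl diphosphate synthase, fell in Scr cells (-0.24), and the demethylase CYP51A1 and the desaturase SC5D of the late sterol steps rose there (0.35 and 0.26). The rise of SC5D was not limited to Scr cells. In siOGT1 and siOGT2 cells too, both AT7519 samples lay above both DMSO samples. In siOGT2 cells SC5D had 226 and 190 CPM with AT7519 and 166 and 158 CPM with DMSO. FADS1 fell in OSMI2 cells (-0.38).

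Other genes of sterol and fatty acid metabolism, outside the 37, give the setting. Of 29 other sterol genes 26 were tested, and with AT7519 in OSMI2 cells 7 rose and 6 fell (median -0.02), against 9 and 6 in Scr cells (median 0.08). Of 30 other fatty acid genes 29 were tested, with 10 higher and 3 lower in OSMI2 cells (median 0.19) and 11 and 3 in Scr cells (median 0.18). None of either list was called in OSMI2 minus Scr. ACAT1, the mitochondrial thiolase, rose by 0.72 ± 0.08 in OSMI2 and 0.65 ± 0.08 in Scr cells, the lysosomal sterol carrier NPC2 by 0.59 and 0.67, and PGRMC1, a haem-binding partner of sterol enzymes, by 0.61 and 0.65. VLDLR, a lipoprotein receptor, fell by 1.28 on the log2 scale in OSMI2 and by 1.18 in Scr cells. DGAT1, which completes triglycerides, rose by 0.63 and 0.85, the elongation reductase TECR by 0.56 and 0.73, the citrate carrier SLC25A1 by 0.36 and 0.49, and the dehydratase HACD3 by 0.37 and 0.48.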

How the data were processed

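RNA of LNCaP cells was sequenced from 16 samples in 8 groups of 2. The deposited table holds raw read counts per Ensembl gene for 60252 rows. The authors' read alignment and counting are known only from the submitters' processing notes, which name STAR, HTSeq, DESeq2 and 2 names of 1 human build, hg19 and GRCh37, with no version of a tool and no setting. The libraries were strand-specific per the labels' protocols. A deposited table of normalised values was not used.

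Symbols came from GENCODE release 29 and the supplied gene name table. All 37 members had 1 row each. The members and gene lists were chosen with earlier results of these data known.

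Counts were filtered with filterByExpr of edgeR 4.0.16 on the 8 groups, which left 23830 genes, and scaled by TMM. The quasi-likelihood test (glmQLFit, robust, and glmQLFTest, two-sided) was fitted to all 16 samples with 1 mean per group, in R 4.3.3. Genes with a p under 0.05 after Benjamini-Hochberg adjustment over all genes tested were called. Standard errors (SE) were the log2 fold change divided by the root of F. Levels are TMM-normalised CPM. The alternatives were other scalings, DESeq2 1.42.0, other filters, only the groups compared, a replicate block and each library left out in turn. The fitting was tested on simulated data.

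OGT and all members are named. Values in every sample are given for members called in 1 direction in all 4 AT7519 comparisons with a log2 fold change of 0.5 or more, called in 1 direction in at least 2 arms against Scr under DMSO, or called in a difference in AT7519 response. This rule named 13 members. Values of EBP, INSIG1, FASN, SCD, SQLE, HMGCS1, SREBF1 and SC5D, some of them in part of the groups only, were added after they were seen. From each list of other pathway genes, the 4 with the smallest adjusted p for AT7519 in Scr cells are named. Depth was between 40216911 and 147019364 counts per sample. No promoter is shown for members with no entry in the RefSeq table or with more than 1 window.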

Additional observations from a re-analysis of the deposited data

Results flagged for a closer look

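The response to AT7519 differed between OSMI2 and Scr cells for 11 genes by the test of the difference itself in edgeR's quasi-likelihood fit. In the sterol arm the difference was -0.91 for MSMO1, -0.88 for MVK, -0.84 for LSS, -0.78 for MVD, -0.75 for IDI1, -0.69 for DHCR7 and -0.67 for FDFT1 on the log2 scale. In the fatty acid arm it was -0.99 for LPIN1, -0.63 for ACSS2 and -0.43 for ACLY, and for the transport protein STARD4 it was -0.63. Each was lower in OSMI2 cells, and each stayed below 0 with any of the 8 libraries left out, although the number called then ranged from 0 to 13. The OSMI2 arm carries no siRNA name in the labels beyond OSMI2, so the inhibitor and any other difference in handling between these cells and Scr cells cannot be told apart.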

How the results depend on the processing

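When 1 library at a time was left out, the number of members called ranged from 10 to 18 for AT7519 in Scr cells, 10 to 16 in siOGT1 cells, 10 to 14 in siOGT2 cells and was 21 in every case in OSMI2 cells. Against Scr under DMSO it ranged from 4 to 6 for siOGT1, 6 to 9 for siOGT2 and 2 to 6 for OSMI2. Under AT7519 it ranged from 10 to 14, 10 to 13 and 8 to 15. For the difference in AT7519 response it was 0 throughout for siOGT1 and siOGT2 and ranged from 0 to 13 for OSMI2. These fits have 1 sample in the reduced group, which is assumed to vary like the others.

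DESeq2 called 14 members for OSMI2 against Scr under DMSO, 1 for siOGT1 minus Scr in AT7519 response and 17 for OSMI2 minus Scr, while calls over all genes were 1420, 118 and 478 with DESeq2 and 710, 12 and 178 with edgeR. With no filter on low counts the OSMI2 counts were 14 under DMSO and 18 for the difference. A fit of only the groups compared gave 18 for OSMI2 under DMSO and 6 for siOGT2 under AT7519. For OSMI2 under AT7519, upper-quartile scaling, scaling by library size only and the filter on mean log2 CPM, at 3, each gave 9. Calls over all genes were then 3329, 3307 and 2861, the last among 10181 genes tested. The cause of these shifts was not tested. With scaling by library size only, 5 of the called AT7519 responses followed across the settings changed sign, and uncalled ones were not counted: ACSS2 was at -0.024 in Scr and -0.050 in siOGT2 cells, ACLY at -0.012 in Scr and -0.024 in siOGT1 cells, and ACACA at -0.028 in siOGT2 cells.

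Replicate numbers do not pair samples by the labels. Replicate differences of the siRNA and Scr arms correlated across genes at 0.603 to 0.732 within 1 agent, those of OSMI2 with these arms at 0.0441 to 0.184, and OSMI2 with AT7519 and OSMI2 with DMSO at 0.432. A replicate block within agent gave 18 members for OSMI2 under DMSO, 1 for siOGT1 minus Scr and 18 for OSMI2 minus Scr (all genes, 2391, 218 and 784). With either form of the block FASN passed for siOGT2 under DMSO (adjusted p = 0.034 and 0.00186). A block with crossed numbers in a fit of the siOGT2 samples alone, added after the data were seen, gave 16 members higher and 4 lower with AT7519, against 14 and 4 in that fit without a block.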
